A study of Mus musculus with 3 samples.

Results

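Resident cardiac macrophages, the long-lived macrophages that sit in the heart before any injury, are recognised by a small set of genes. The data described here are the UMI counts (unique molecular identifiers, 1 per captured RNA molecule) of 10 such genes, Lyve1, Folr2, Timd4, Cbr2, Cd163, Mrc1, Vsig4, Ednrb, Hpgd and Gpr34, out of 54752 genes in each of 3 single-cell RNA-Seq count tables. The genes are known resident macrophage genes and were chosen with earlier results of these data known, and all 10 had counts in all 3 libraries. The hearts came from C57BL/6 mouse pups operated on postnatal day 10 and taken 3 days (72 hours) later, on day 13. P10-sham_vehicle pups had the same surgery with no coronary artery tied and received vehicle, P10-MI_vehicle pups had the left anterior descending artery tied off (MI, myocardial infarction) and received vehicle, and P10-MI_SB225002 pups had that artery tied off and received SB225002, an antagonist of the chemokine receptor CXCR2. CD45+F4/80+7AAD- cells (live leukocytes with the macrophage surface marker F4/80) were sorted from the infarct and border zones of several pooled hearts per library. The remote zone was left out. The paper used pups of both sexes and did not determine their sex, so the mix within a library is not known. There was 1 library per condition and no replicate of any condition, so no test of a condition could be made.

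Macrophages of the heart are seeded before birth and renew themselves locally, while Ly6c-high monocytes from the blood enter after an infarction and turn into inflammatory and then reparative macrophages. The 10 genes serve the housekeeping work of the resident cells. Lyve1 and Mrc1 (CD206) bind and take up glycans, Cd163 takes up haemoglobin bound to haptoglobin, Timd4 (TIM-4) binds phosphatidylserine on dying cells, Vsig4 is a complement receptor, Folr2 a folate receptor, Ednrb an endothelin receptor and Gpr34 a lysophosphatidylserine receptor. Cbr2 (a carbonyl reductase) and Hpgd (which inactivates prostaglandins) are enzymes. Levels are given as CPM, the UMIs of a gene per 1000000 UMIs of all genes, summed over the named cells of a library. Intervals are 95% exact ones and cover counting error only.

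For orientation, the 250 bases before the start are printed for 4 of the members that held a motif searched for. They come from the RefSeq promoter table (build GRCm38.p6) and run 5' to 3' on the strand of the gene. Capitals mark matches, on either strand, to GAGGAA (the core site of PU.1, a transcription factor of all macrophages) in Mrc1 and Vsig4, TGCTGAC (a half-site of MAF factors, which keep macrophages differentiated) in Timd4, and TATTTAT (a core site of MEF2) in Cd163.
Mrc1, chr2:14229164-14229413, plus strand: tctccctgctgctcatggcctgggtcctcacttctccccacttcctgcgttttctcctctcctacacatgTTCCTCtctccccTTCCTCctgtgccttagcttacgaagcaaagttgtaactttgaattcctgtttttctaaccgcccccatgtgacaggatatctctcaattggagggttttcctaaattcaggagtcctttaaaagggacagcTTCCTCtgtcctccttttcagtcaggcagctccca
Vsig4, chrX:96293439-96293688, minus strand: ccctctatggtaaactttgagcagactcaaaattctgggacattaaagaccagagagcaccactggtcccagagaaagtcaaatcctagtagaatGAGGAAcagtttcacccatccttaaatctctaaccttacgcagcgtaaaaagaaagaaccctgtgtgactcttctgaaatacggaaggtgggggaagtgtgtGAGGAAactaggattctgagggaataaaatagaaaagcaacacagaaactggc
Timd4, chr11:46810549-46810798, plus strand: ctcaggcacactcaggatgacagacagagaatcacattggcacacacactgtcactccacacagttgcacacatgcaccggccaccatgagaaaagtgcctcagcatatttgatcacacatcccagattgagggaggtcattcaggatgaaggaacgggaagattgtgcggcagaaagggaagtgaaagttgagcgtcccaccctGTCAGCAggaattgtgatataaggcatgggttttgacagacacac
Cd163, chr6:124304401-124304650, plus strand: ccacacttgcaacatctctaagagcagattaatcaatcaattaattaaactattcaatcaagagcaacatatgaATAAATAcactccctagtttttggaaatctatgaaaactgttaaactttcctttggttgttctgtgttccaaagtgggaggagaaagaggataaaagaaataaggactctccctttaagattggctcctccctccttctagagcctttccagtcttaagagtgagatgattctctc
The table held 9 promoters for 8 of the 10 members. GAGGAA stood in 4 of the 9 (Mrc1 with 3 matches, Vsig4 with 2, Cbr2 and Hpgd) and in 23.3% of all 32851 promoters of the table. TGCTGAC stood in 1 of 9 (3.81% of all) and TATTTAT in 1 of 9 (5.17% of all). Folr2 held TGANTCA (AP-1), in 6.75% of all promoters, and TAAAAAT, another core site of MEF2, in 5.92%, and no member held CACGTG (E-box), in 6.02%. These are matches of letters in a short window and say nothing about binding.

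The libraries kept 2351 of 3390 barcodes in P10-sham_vehicle, 3453 of 4511 in P10-MI_vehicle and 4744 of 5783 in P10-MI_SB225002, 10548 cells in all, with medians of 8521, 6400 and 5654 UMIs per cell. Any pair of libraries shared between 786 and 1355 barcode sequences, but cells with the same barcode were no more alike (median correlations from -0.01 to 0.02) than cells paired with the next barcode (-0.01 to 0.02). Clustering without the members and without 24 further resident macrophage genes, 8618 cells were monocytes or macrophages (MPCs), 2054, 2781 and 3783 per library. The names below stand for cells that are like the named type by marker genes: not dividing macrophages (683, 788 and 652 cells), dividing macrophages (513, 451 and 745), infarct macrophages (242, 490 and 923) and a cluster called the Ly6c2-S100a8 cluster (43, 291 and 417). Not dividing macrophages had the highest share of MPCs in P10-sham_vehicle (33.3%), with 28.3% in P10-MI_vehicle and 17.2% in P10-MI_SB225002. Infarct macrophages stood at 11.8%, 17.6% and 24.4%, but those of the sham library carried little of the programme that names them, with 10 infarct markers (Arg1, Spp1, Gpnmb and others) summing to 1025 CPM there, 13880 in P10-MI_vehicle and 28390 in P10-MI_SB225002. The Ly6c2-S100a8 cluster, labelled Ly6c-high in the plots and counted among the MPCs, was led by granulocyte genes such as S100a8, S100a9 and Lcn2 beside Ly6c2 and Plac8. Markers of Ly6c-high monocytes summed to 4987, 5884 and 4987 CPM in it and to 6128, 6745 and 4723 CPM in the neutrophils, while neutrophil markers summed to 928, 1002 and 576 CPM in it and to 25250, 25770 and 21800 CPM in the neutrophils. It may hold neutrophil-like cells beside monocyte-like ones and is not given a cell type here. The F4/80 sort had not removed all other types, since 54, 165 and 364 neutrophils and 84, 221 and 178 fibroblasts were among the cells. Lyve1 also marks lymphatic vessels, but the summed markers of lymphatic endothelium were at most 1.73 CPM in not dividing macrophages, with Mmrn1 and Ccl21a at 0.

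In not dividing macrophages, the members were seen in all libraries. Lyve1 stood at 442 CPM in P10-sham_vehicle, 459 in P10-MI_vehicle and 307 in P10-MI_SB225002, so that the sham and MI values lay close together and that of SB225002 lay lower. Cd163 stood at 290, 345 and 180 CPM in the same order, again lowest under SB225002. Mrc1 stood at 2962, 2709 and 2132 CPM. Each of these was lowest in P10-MI_SB225002. Cbr2 stood at 879, 993 and 766 CPM and Hpgd at 201, 255 and 207 CPM, and both enzymes were highest in P10-MI_vehicle, while Cbr2 was also lowest under SB225002. Ednrb was at 185, 227 and 167 CPM and Gpr34 at 128, 147 and 108 CPM, both also highest in P10-MI_vehicle and lowest under SB225002. Folr2 was nearly level, at 399, 440 and 440 CPM. The rarely counted members were Timd4, at 16.4, 29.5 and 30.7 CPM (95, 149 and 101 UMIs), and Vsig4, at 12.8, 33.4 and 27.3 CPM (74, 169 and 90 UMIs). Both were lower in the sham library than in either MI library. The 10 members together made up 5515, 5637 and 4363 CPM of these cells.

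**Figure D1:**
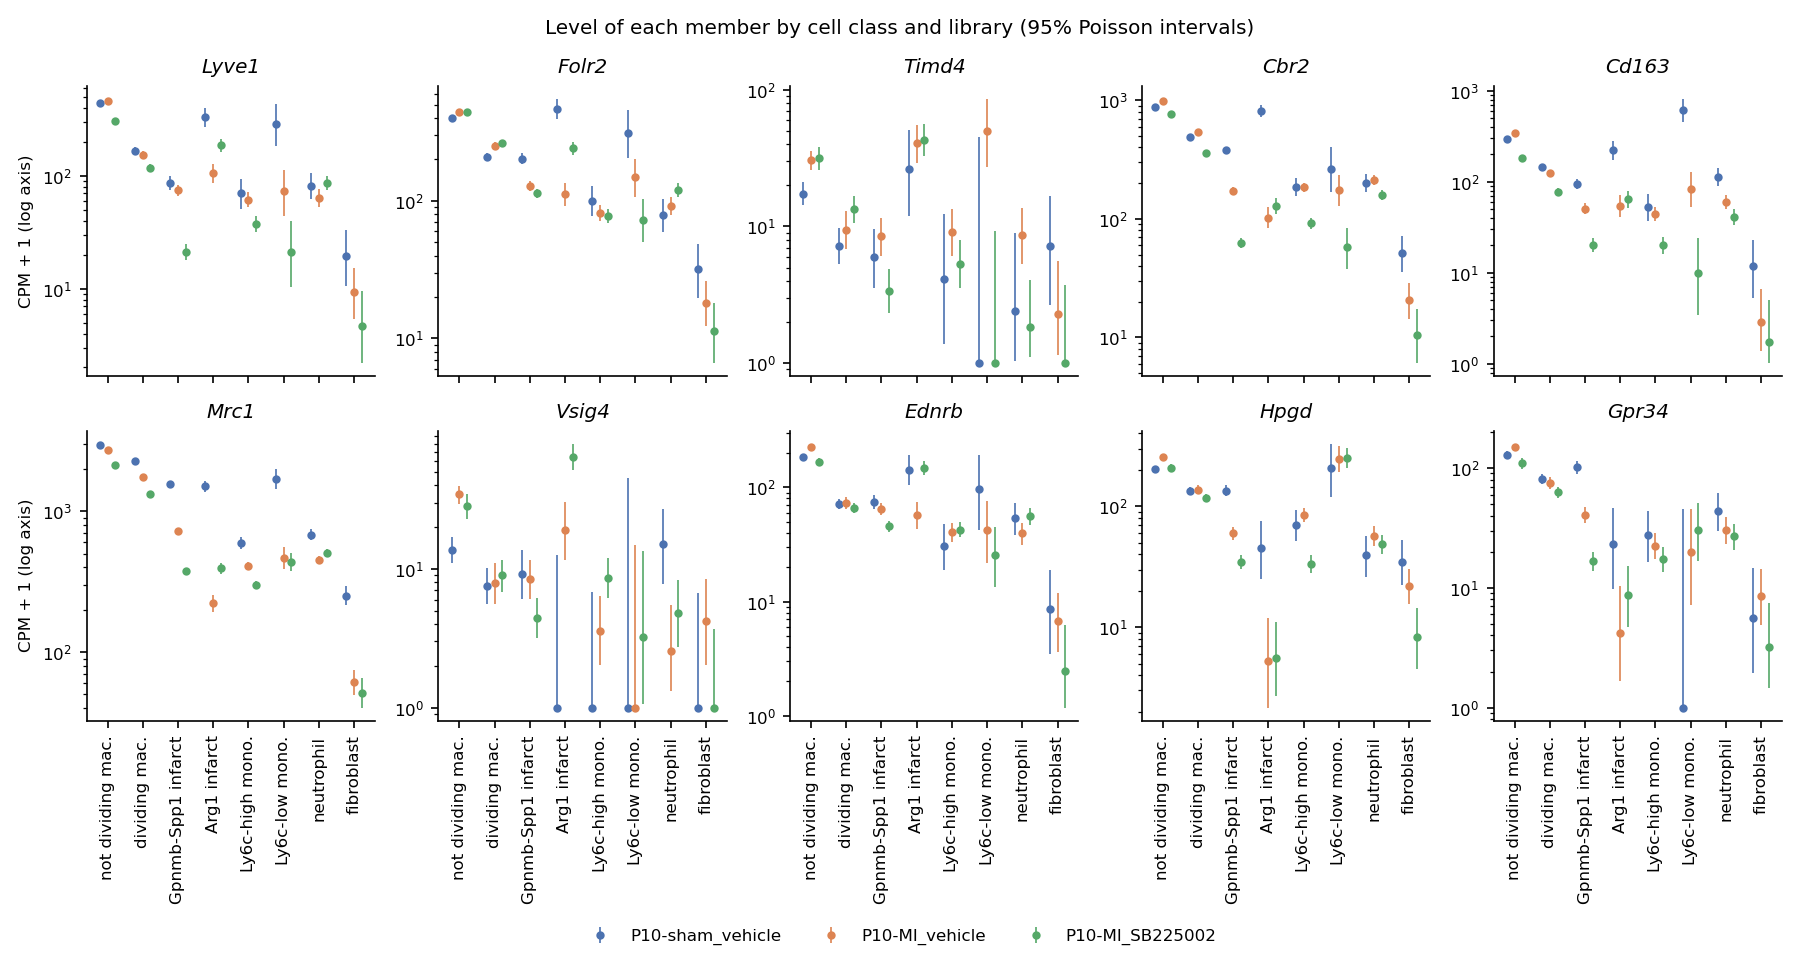
Level of each of the 10 genes in CPM plus 1, on a log axis, in 8 cell classes, 1 point per library with 95% Poisson intervals. For Lyve1 the not dividing macrophages sat at 307 to 459 CPM and the Ly6c2-S100a8 cluster at 36.5 to 69.2 CPM in all 3 libraries.

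The cells called not dividing macrophages formed 3 clusters, which differed in these genes. The first (320, 342 and 277 cells) was led by Lyve1 itself, the second (260, 298 and 260) by immediate-early genes such as Fosb and Egr1, and the third (103, 148 and 115) by neither. Lyve1 stood at 691, 787 and 525 CPM in the first cluster, against 219, 215 and 159 in the second and 228, 236 and 205 in the third. Hpgd had another order, with 176, 217 and 224 CPM in the first cluster and 268, 350 and 314 in the third. Mrc1 in the third cluster was at 4598, 3222 and 3375 CPM. The members were left out of the clustering, but genes that go with them were not, so these differences are a description.

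Dividing macrophages carried all 10 members at lower levels than not dividing ones. A further cluster not named dividing, macrophages with cardiomyocyte RNA (332, 371 and 416 cells), was kept apart from both. Lyve1 in it was at 0.133, 0.173 and 0.155 times the level of not dividing macrophages, against 0.377, 0.332 and 0.379 times in dividing ones. Of 30 pairs of member and library, 26 were lower there, while Hpgd was higher at 209, 317 and 221 CPM. Lower levels were thus not particular to dividing cells. The contrast of cell states was made within each library (edgeR quasi-likelihood test on UMIs summed per library and state, library as a block, adjusted over all 11501 genes tested). The clusters come from other genes of the same cells and the libraries differ in condition, so the p-values say how alike the difference was in the 3 libraries. Lyve1 was 2.68-fold lower in dividing macrophages (log2 difference -1.42 ± 0.07 SE, edgeR adjusted p = 1.31e-12), at 167, 152 and 116 CPM. Its UMIs per cell also were fewer, at 1.73, 1.32 and 0.881 against 3.75, 2.95 and 1.55, although dividing cells held more UMIs in all (medians of 9833, 8083 and 6940 against 7913, 5943.5 and 4533.5). Vsig4 differed by -1.66 ± 0.19, Timd4 by -1.44 ± 0.16, Ednrb by -1.42 ± 0.08 and Cd163 by -1.20 ± 0.08 (edgeR adjusted p = 1.01e-06 for Vsig4, 3.83e-07 for Timd4, 7.5e-12 for Ednrb and 2.5e-10 for Cd163). Cbr2, Folr2, Gpr34 and Hpgd differed less, between -0.89 and -0.73, and Mrc1 least, by -0.52 ± 0.06. All 10 of 10 members passed as lower, where 17.4% of all genes did, and the median difference was -1.04 for the members and -0.01 for all genes. The call for Mrc1 was lost when only cells with under 5% mitochondrial UMIs were kept (-0.08) and without the library block (-0.51).

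The Ly6c2-S100a8 cluster, which may hold neutrophil-like cells beside monocyte-like ones, also held the members at lower levels. All 10 passed as lower than in not dividing macrophages, where 21.8% of 10990 genes did, with a median log2 difference of -2.36. The scavenger receptor Cd163 differed by -2.74 ± 0.14 and Lyve1 by -2.69 ± 0.12 (edgeR adjusted p = 1.82e-09 and 4.44e-10). Hpgd differed least, by -1.76 ± 0.18, and stood at 69.2, 83.3 and 32.4 CPM. In Ly6c-low monocytes, the patrolling cells of the blood, Hpgd was found at 204, 246 and 250 CPM. These rest on 17, 65 and 111 UMIs in 19, 60 and 136 cells. The values of P10-sham_vehicle and P10-MI_vehicle were close to those of the not dividing macrophages. In P10-MI_SB225002 Hpgd was highest in Ly6c-low monocytes among the 15 classes compared. Neutrophils and lymphocytes, which should lack these genes, held UMIs of them too, so part of the UMIs in this cluster may be free RNA and the differences are then not those of expression, a part that was not tested.

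Infarct macrophages also carried the members at lower levels, with larger SEs. Lyve1 stood at 114, 79.1 and 48.2 CPM (log2 difference -2.22 ± 0.12, edgeR adjusted p = 7.24e-05), Cbr2 at 429, 158 and 72.6 CPM (-2.19 ± 0.36, edgeR adjusted p = 0.00597) and Cd163 at 109, 50.4 and 26.8 CPM (-2.14 ± 0.23, edgeR adjusted p = 0.00105). The order of the 3 libraries was the same for each of these. Vsig4 differed least, by -1.09 ± 0.21 (edgeR adjusted p = 0.0104), at 7.29, 9.42 and 13.6 CPM. All 10 passed as lower, where 10.8% of 11366 genes did, with a median of -1.65. Without the P10-MI_vehicle library 7 of 10 passed, and Gpr34, Hpgd and Vsig4 did not, and without the library block 5 passed. The values for Timd4 (-1.20 in the first instance) turned to 0.23 with cells under 5% mitochondrial UMIs and to 0.47 without integration of the libraries, and the call for Vsig4 was lost under all 5 alternatives that changed the cells or the clustering, those for Timd4 under 4 of them and for Ednrb under 2. Beside these, in all 30 pairs of member and library, each of these 3 states had a lower level than not dividing macrophages, and the interval of the ratio lay below 1.

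**Figure D2:**
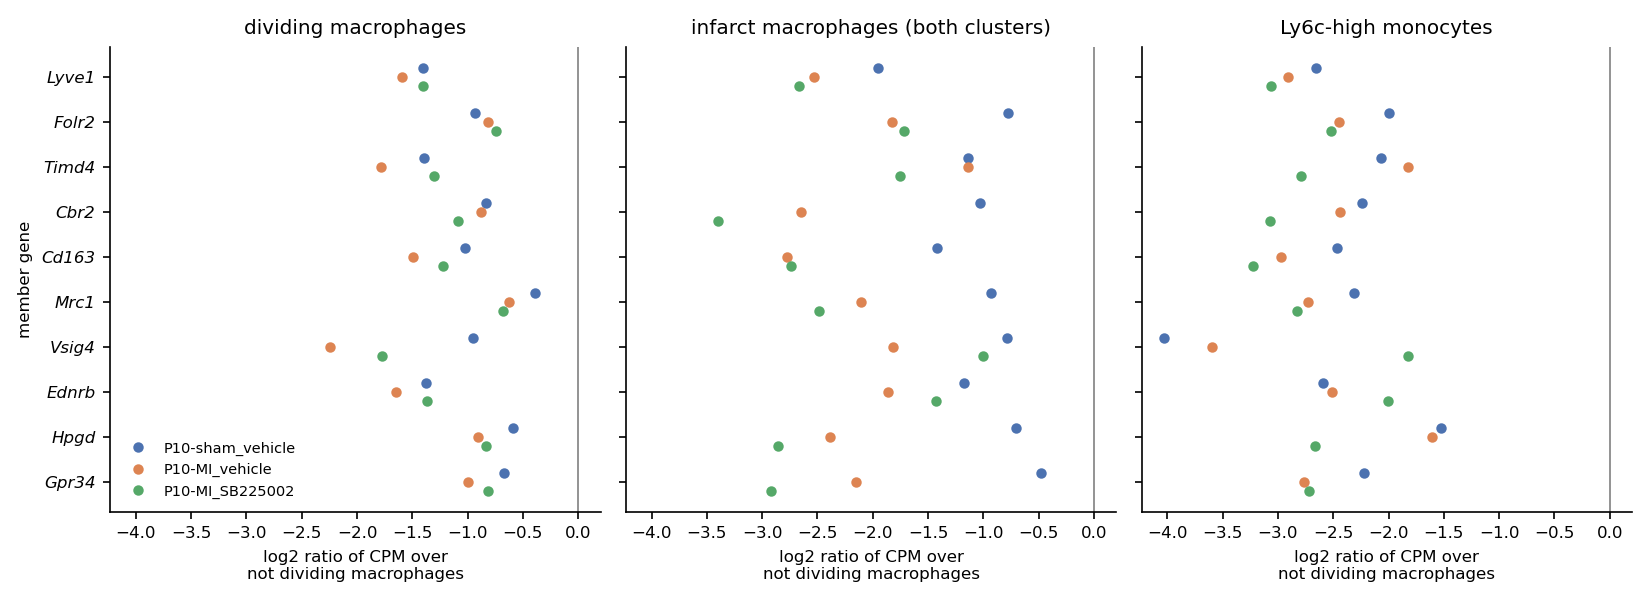
Level of each gene in dividing macrophages, infarct macrophages and the Ly6c2-S100a8 cluster relative to not dividing macrophages of the same library, as a log2 ratio, 1 point per library. All points lie below 0. Vsig4 had 0 UMIs in the Ly6c2-S100a8 cluster of P10-sham_vehicle, and its point there rests on the 0.5 UMIs added to each sum.

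The infarct macrophages comprised a cluster with Gpnmb and Spp1 (214, 412 and 768 cells) and one with Arg1 (28, 78 and 155 cells). In the Arg1 cluster of the libraries with MI, Hpgd was found at 4.28 and 4.59 CPM (4 and 6 UMIs) and Gpr34 at 3.21 and 7.65 CPM (3 and 10 UMIs), against 58.7 and 33.4 CPM for Hpgd and 39.7 and 15.6 CPM for Gpr34 in the Gpnmb and Spp1 cluster. Timd4, by contrast, stood at 39.6 and 42.1 CPM in the Arg1 cluster, with counting intervals that overlapped those of not dividing macrophages (29.5 and 30.7 CPM). Vsig4 in the Arg1 cluster of P10-MI_SB225002 stood at 63.5 CPM (83 UMIs), 2.32 times its level in the not dividing macrophages of that library (1.70 to 3.16), but at 18.2 CPM (17 UMIs) and 0.544 times (0.310 to 0.897) in P10-MI_vehicle, and it had 0 UMIs in P10-sham_vehicle. Ednrb there was at 148 CPM in P10-MI_SB225002, 0.885 times its level in not dividing macrophages (0.747 to 1.04), and at 56.7 CPM and 0.250 times (0.186 to 0.330) in P10-MI_vehicle. The lower levels of infarct macrophages as a whole thus did not hold for Vsig4 and Ednrb in the Arg1 cluster of P10-MI_SB225002. For Timd4 they did not hold in the Arg1 cluster of any library (1.54, 1.34 and 1.37 times, on 8, 37 and 55 UMIs). In the 28 Arg1 cells of P10-sham_vehicle, Folr2 (1.17 times, 0.983 to 1.38) and Cbr2 (0.925 times, 0.813 to 1.05) also had intervals that reached 1. These are values of small sums and were not tested.

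The comparison of P10-MI_vehicle with P10-sham_vehicle sets 1 library after MI beside 1 sham library. All MPCs include infarct macrophages (11.8% in P10-sham_vehicle and 17.6% in P10-MI_vehicle) and the Ly6c2-S100a8 cluster (2.09% and 10.5%), not resident macrophages alone. Over all MPCs, most members were slightly lower after MI. Mrc1 went from 2253 to 1512 CPM, 1.49-fold lower (interval 1.47 to 1.51), Lyve1 from 238 to 191 CPM, 1.25-fold lower (1.19 to 1.30), and Cd163 from 178 to 149 CPM. Timd4 went the other way, from 9.27 to 15.9 CPM, 1.72-fold higher (1.43 to 2.08), as did Vsig4, from 9.06 to 13.5 CPM (ratio 1.49, 1.22 to 1.81), just inside the limit. By a limit of 1.5-fold, 0 of 10 members were lower and 1 was higher, where 2.88% of 11138 genes with at least 100 UMIs were lower and 5.83% higher. With TMM or DESeq2 scaling or the states weighted, 2 were higher. With cells under 5% mitochondrial UMIs, 1 was lower and 1 higher. As differences of mean log-normalized values per cell, which are on another scale, 1 was lower and 0 higher. The median log2 ratio was -0.22 for the members and -0.08 for all genes. With the states weighted to their shares in P10-MI_vehicle it was -0.10, and with each cell thinned to 1000 UMIs -0.05.

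Within not dividing macrophages, 0 of 10 members were lower after MI and 2 were higher, where 0.905% of genes were lower and 1.54% higher. These 2 were Vsig4, 2.62-fold (1.98 to 3.49), and Timd4, 1.80-fold (1.38 to 2.35). The 74 and 169 UMIs of Vsig4 lay in only 35 and 48 cells, and the 95 and 149 of Timd4 in 73 and 107. The intervals take UMIs as independent, which those of 1 cell need not be, so they may be too narrow. The other 8 members had log2 ratios between -0.13 (Mrc1) and 0.34 (Hpgd), and Lyve1 was at 0.05 (-0.03 to 0.14). The median was 0.23, and it turned to -0.08 with cells under 5% mitochondrial UMIs and to -0.04 at another resolution of the clusters, while Timd4 and Vsig4 stayed above 1.5-fold in each of the 5 alternatives that changed the cells or the clustering (0.69 to 0.87 and 0.77 to 1.21). As differences of mean log-normalized values per cell both were small (0.089 and 0.051) and 0 members were past the limit. This measure is not a ratio of CPM and stays small for genes seen in few cells, so it cannot check the limit for these 2. After thinning, however, cells with a Vsig4 UMI were 1.91% of not dividing macrophages in P10-sham_vehicle, 2.05% in P10-MI_vehicle and 3.04% in P10-MI_SB225002, and cells with a Timd4 UMI were 1.32%, 2.43% and 3.67%, so each share rests on few cells. In infarct macrophages, 8 members had at least 100 UMIs over both libraries, of which 6 were lower after MI, where 7.09% of genes were, against sham cells that held few infarct markers. Their median log2 ratio was -1.20, and the median over all 10 members, -1.01, ranged from -1.78 to -0.24 over 5 alternatives.

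The comparison of P10-MI_SB225002 with P10-MI_vehicle sets 1 library with SB225002 beside 1 library with vehicle, both after MI. Over all MPCs, members of this set were lower under SB225002. Cd163 went from 149 to 58.5 CPM, 2.54-fold lower (2.39 to 2.71), and Lyve1 from 191 to 96.7 CPM, 1.98-fold lower (1.88 to 2.08). Cbr2 went from 499 to 256 CPM, 1.95-fold lower (1.89 to 2.02). Gpr34 (1.80-fold), Mrc1 (1.69-fold), Hpgd (1.66-fold) and Ednrb (1.505-fold) were lower as well, with Ednrb right at the limit (1.41 to 1.60). Folr2, at 233 and 198 CPM, Timd4, at 15.9 and 11.9 CPM, and Vsig4, at 13.5 and 12.1 CPM, lay inside the limit. In counts, 7 of 10 members were lower by 1.5-fold and 0 higher, where 5.9% of 11326 genes were lower and 2.89% higher. The median log2 ratio was -0.74 for the members and -0.05 for all genes, and -0.46 with the states weighted to their shares in P10-MI_vehicle. The number lower fell from 7 to 3 with this weighting. It was 2 for the difference of mean log-normalized values per cell. That measure is smaller than a log2 ratio of CPM for genes at low levels, so its count cannot be set beside the 7. These libraries also differed in depth, in neutrophils (165 and 364 cells) and in infarct markers over all MPCs (4362 and 12800 CPM), and the part of these in the result was not tested.

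**Figure D3:**
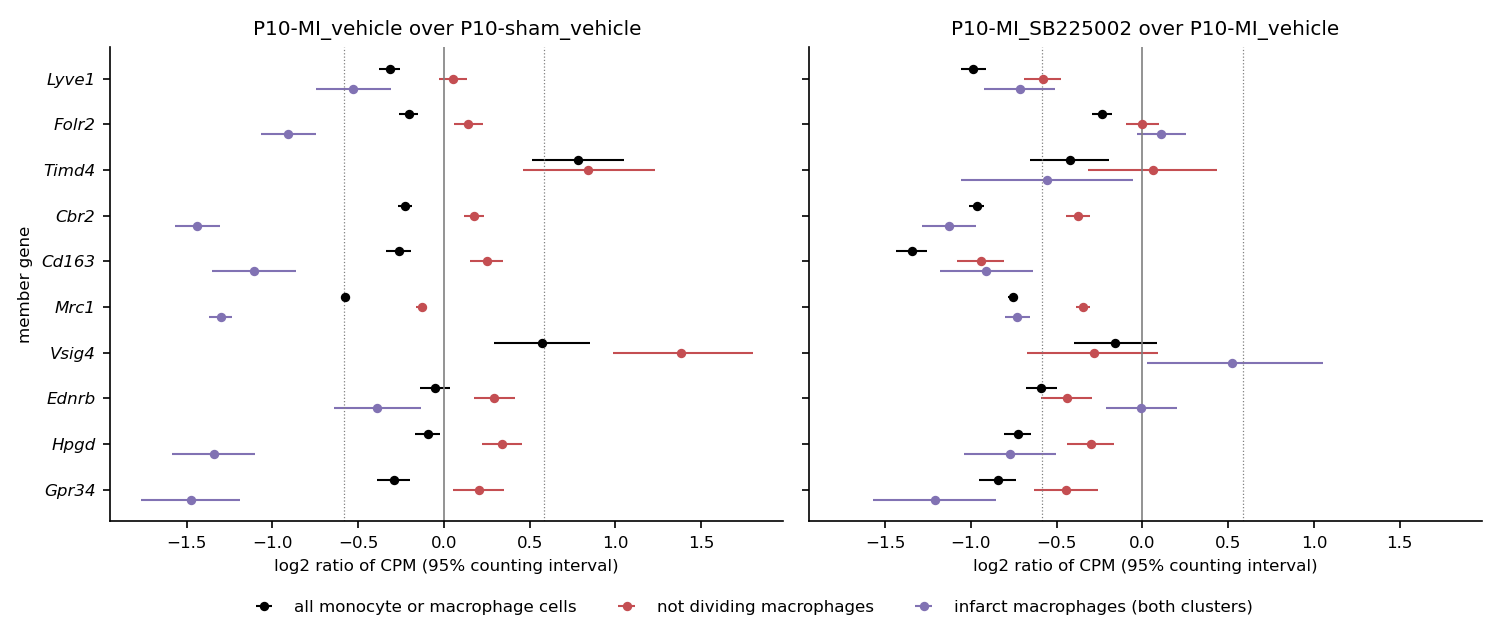
Log2 ratio of each gene between conditions, for all monocytes or macrophages, not dividing macrophages and infarct macrophages, with 95% counting intervals and the limit of 1.5-fold. Over all monocytes or macrophages 7 genes lie below the limit under SB225002, and in not dividing macrophages 1 gene, Cd163, does.

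Within not dividing macrophages, 1 of 10 members was lower under SB225002, where 3.24% of 7891 genes were lower and 4.46% higher. This was Cd163, 1.92-fold lower (1.75 to 2.11), and Lyve1 lay at the limit, 1.496-fold lower (1.39 to 1.61), and just outside the count. Folr2 (ratio 0.998, interval 0.934 to 1.07) and Timd4 (1.04, 0.801 to 1.35) were level. The median log2 ratio was -0.36 for the members and 0.03 for all genes. This count depended on how the cells were drawn: 7 members were lower with cells under 5% mitochondrial UMIs, 6 without integration, 5 with all variable genes in the clustering and 7 at another resolution, with medians from -0.74 to -0.60. Cd163 was past the limit in each of these. The depth of the cells moved with the comparison, as did 10 immediate-early genes such as Fos and Jun, a list drawn up after the data were seen (4563 and 2439 CPM), and the infarct markers (273 and 981 CPM), and their part was not tested.

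Dividing macrophages showed the same gene. Cd163 went from 123 to 76.8 CPM in them under SB225002, 1 of the 9 members with at least 100 UMIs to be lower, where 3.4% of genes were, and Cbr2 was just inside the limit (540 and 360 CPM). In infarct macrophages, 6 of 10 members were lower under SB225002, where 5.62% of genes were: Gpr34, Cbr2, Cd163, Mrc1, Hpgd and Lyve1. Gpr34 went from 33.0 to 14.3 CPM and Cbr2 from 158 to 72.6 CPM. Folr2 (124 and 134 CPM) and Ednrb (62.4 and 62.1 CPM) were level with both infarct clusters pooled. The 2 clusters went opposite ways. Members with at least 100 UMIs had a median log2 ratio of -1.14 in the Gpnmb and Spp1 cluster (8 members, all genes -0.04). In the Arg1 cluster it was 0.83 (7 members, all genes 0.07). Ednrb went from 63.7 to 44.6 CPM in the first and from 56.7 to 148 CPM in the second. Folr2 went from 127 to 112 CPM and from 111 to 240 CPM. The pooled median log2 ratio, -0.72, turned to 0.61 when only cells with under 5% mitochondrial UMIs were kept. The direction in infarct macrophages thus depends on which cells are counted.

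The state from which the UMIs of a member came differed between the libraries. Not dividing macrophages gave 56.3% of the Lyve1 UMIs of all MPCs in P10-sham_vehicle, 58.7% in P10-MI_vehicle and 41.2% in P10-MI_SB225002, although they held 30.4%, 24.5% and 12.99% of all UMIs of MPCs. For Vsig4, infarct macrophages gave 11.6%, 17.3% and 34.3%. With the states set to their shares in P10-MI_vehicle, Lyve1 stood at 213, 191 and 124 CPM and Folr2 at 254, 233 and 231 CPM.

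**Figure D4:**
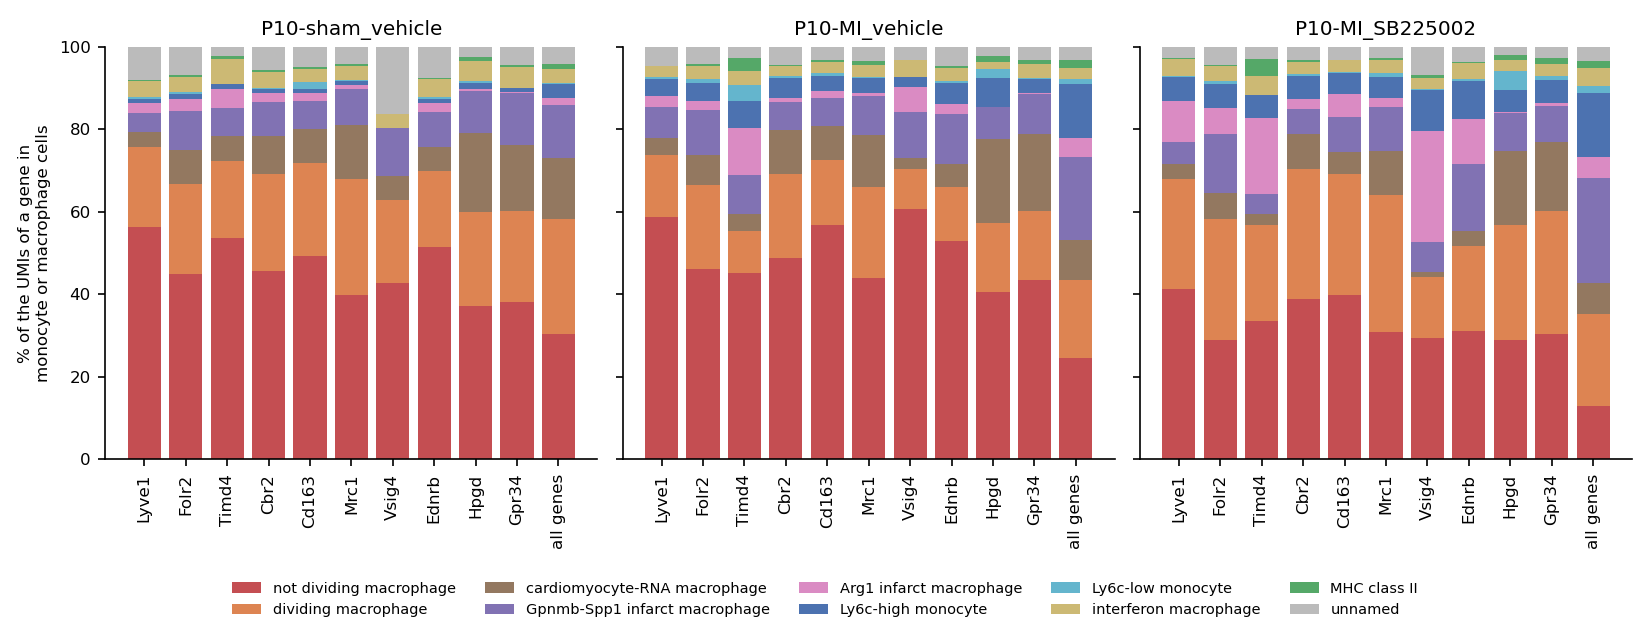
Share of each gene's UMIs in monocytes or macrophages that came from each cell state, as stacked bars in percent, 1 bar per gene in each library's panel, beside a bar for all genes. Not dividing macrophages gave 41.2% of the Lyve1 UMIs in P10-MI_SB225002 and 58.7% in P10-MI_vehicle.

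Shares of cells with a UMI were read at 1000 UMIs per cell (each cell thinned, with 268 shallower cells of 10548 left out). Lyve1 was found in 24.4%, 24.04% and 19.0% of thinned not dividing macrophages, and in 55.6%, 49.2% and 37.7% without thinning. T or NK cells, which should lack it, had it in 14.3%, 13.2% and 16.2%, with medians of 7840, 7385.5 and 5628 UMIs per cell. Mrc1 was found in 90.6%, 90.03% and 80.7% of not dividing macrophages and in 63.3%, 48.2% and 27.0% of T or NK cells. General macrophage markers (C1qa, Csf1r and 8 others) summed to 15260, 13540 and 14150 CPM in T or NK cells, against 21240, 24610 and 24540 in not dividing macrophages, so these barcodes held macrophage RNA, and the members in them are not read as expression by lymphocytes. Fibroblasts held least, with 3598, 1312 and 2042 CPM of macrophage markers and Lyve1 in at most 0.948% of cells. The Ly6c2-S100a8 cluster had Lyve1 in 4.65%, 3.79% and 3.21% of thinned cells, below the neutrophils (9.43%, 6.88% and 6.32%) and the T or NK cells but above the fibroblasts, so expression of Lyve1 there could not be told apart from macrophage RNA held by other barcodes.

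**Figure D5:**
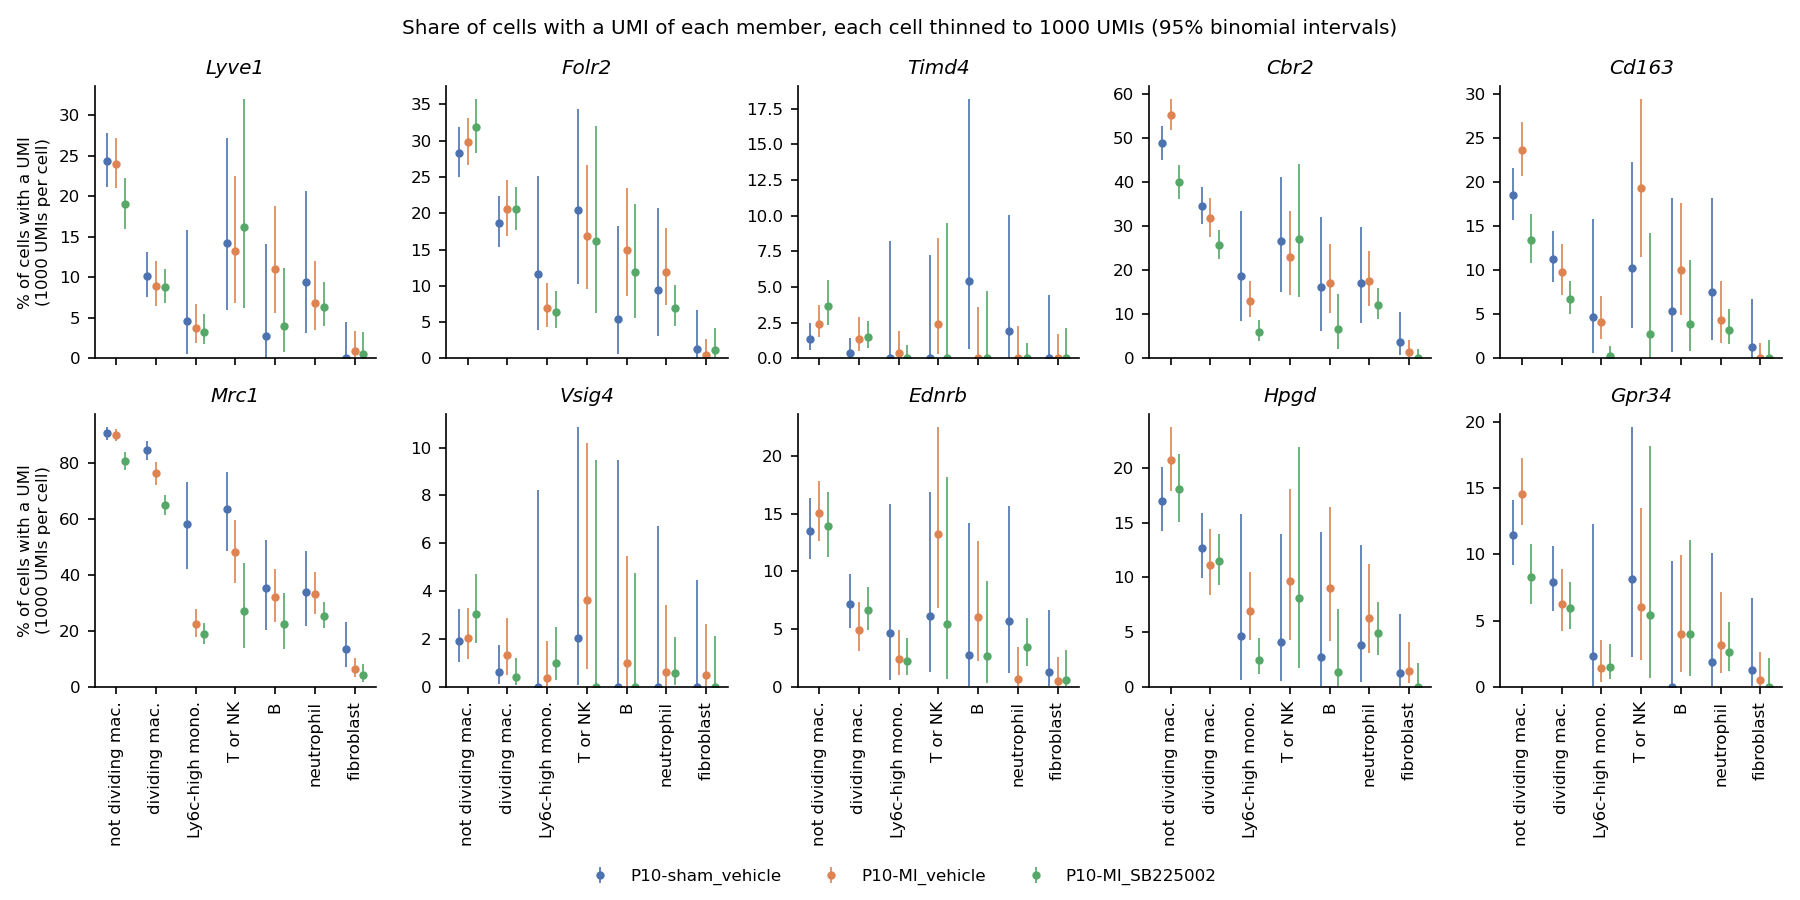
Share of cells with at least 1 UMI of each gene after each cell was thinned to 1000 UMIs, in percent, for not dividing and dividing macrophages, the Ly6c2-S100a8 cluster and 4 classes that should lack most of the genes, 1 point per library with 95% exact binomial intervals. Lyve1 was in 24.4% of not dividing macrophages and 14.3% of T or NK cells of P10-sham_vehicle.

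A single not dividing macrophage held UMIs of 5.51, 5.24 and 4.31 of the 10 members on average, and of 2.56, 2.78 and 2.32 after thinning. Members were found together unevenly. Of cells with a Timd4 UMI (73, 107 and 67), 83.6%, 82.2% and 68.7% also had Lyve1, against 52.3%, 44.1% and 34.2% of the other cells. The cells with Timd4 were deeper, with medians of 10479, 6680 and 5985 UMIs against 7819.5, 5794 and 4424. After thinning, 44.4%, 68.4% and 47.8% of only 9, 19 and 23 cells with Timd4 had Lyve1, against 24.1%, 22.9% and 17.9% of the others. Cells with both Timd4 and Vsig4 numbered 9, 13 and 6. Without thinning, Timd4 was in 25.7%, 27.1% and 17.1% of cells with Vsig4, against 9.88%, 12.7% and 9.89% of the others. Cells with Vsig4 were deeper too (medians of 9691, 6737.5 and 4892 UMIs against 7877.5, 5852.5 and 4532). After thinning 0 cells held both, but only 13, 16 and 19 cells had Vsig4. These are too few for the 0 to say whether the 2 genes go together. Lyve1 and Folr2 went together after thinning, with Folr2 in 42.2%, 43.6% and 58.8% of cells with Lyve1 and in 23.9%, 25.4% and 25.6% of the others. Hpgd and Lyve1 did not, with Lyve1 in 23.3%, 22.8% and 20.4% of cells with Hpgd and in 24.6%, 24.4% and 18.7% of the others.

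The genes most like each member were sought among 7222 genes over 42 sums of cells by cell class and library. Different sums share a library, so these values are a description (Pearson correlation of log2(CPM + 1)). Lyve1 was most like Folr2 (0.935), Cd163 (0.904) and Cbr2 (0.896), and Folr2 most like Pf4 (0.938). Cbr2 was most like Cd163, Maf and F13a1 (all 0.94), and Mrc1 most like Maf (0.977), Stab1 (0.966) and Prune2 (0.962). Gpr34 was most like Slc9a9 (0.941), Hpgds (0.931) and Fcrls (0.921), and Hpgd most like Tab2 (0.888). Hpgd thus stood nearer to Gpr34 (0.838) than to Lyve1 (0.361). Ednrb was most like Lyve1 (0.868). The sparse Timd4 and Vsig4 reached only 0.660 (Fcna) and 0.679 (Tpp1), and 0.420 with each other.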

How the data were processed

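The authors deposited 1 table of raw UMI counts per library, with all barcodes of 54752 genes. Per the labels and methods these came from CD45+F4/80+ heart cells on the BMKGENE platform. The submitters' processing notes name mm10 and Seurat 4.1.0, and the aligner is not given in the sources used here. Cells with 500 to 30000 UMIs, 500 to 5000 genes and a mitochondrial share under 10% were kept. Counts were log-normalized, the libraries integrated (Harmony's algorithm, rewritten) and cells clustered (scanpy 1.11.5, leidenalg 0.10.2) without the 10 genes and 24 further resident macrophage genes. A cluster was named from marker lists, by a scoring rule set after its leading genes were seen, and 1 cluster led by haemoglobin genes stayed unnamed. Clusters with cardiomyocyte RNA were kept apart. Scrublet scores called 0 doublets in each library, so that it had not worked, and leaving out the 6% of cells with the highest scores was an alternative.

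Conditions were compared by summed counts, as ratios of CPM with exact conditional binomial intervals, with 0.5 UMIs added to each sum for log2 ratios. Past the limit means at least 1.5-fold with at least 100 UMIs over both libraries. States were compared with edgeR 4.0.16 (quasi-likelihood, filterByExpr, Benjamini-Hochberg adjustment over all genes tested, threshold 0.05), R 4.3.3. SEs are the size of the log2 difference over the root of F. The scripts were tested on simulated data. Alternatives changed the mitochondrial limit, integration, clustering genes, resolution, scaling (TMM, DESeq2 1.42.0), thinning, weighting, library block and each library. The members and lists were chosen with earlier results of these data known. Genes named are the 10 members, the wider resident genes past 1.5-fold by condition in not dividing macrophages, and up to 3 genes most like each member. Tests were two-sided.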

Additional observations from a re-analysis of the deposited data

Results flagged for a closer look

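Lyve1 and Mrc1 moved in opposite directions past 1.5-fold in different states under SB225002, which is why they are listed here. The log2 ratio of P10-MI_SB225002 to P10-MI_vehicle for Lyve1 was -1.86 in the infarct macrophages with Gpnmb and Spp1, -0.73 in the Ly6c2-S100a8 cluster and 0.82 in the infarct macrophages with Arg1. For Mrc1 it was -0.94 in the cells with Gpnmb and Spp1 and 0.83 in those with Arg1. The Arg1 cells of P10-MI_vehicle also held less of the macrophage markers (6657 CPM, against 15990 in P10-MI_SB225002). Each value comes from 1 library per condition, the Arg1 cluster held 78 and 155 cells in the libraries with MI, and the difference between the states was not tested.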

How the results depend on the processing

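For MPCs after MI, the median log2 ratio of the members (-0.22) was -0.28 with cells under 5% mitochondrial UMIs, -0.16 with TMM factors, -0.17 with DESeq2 size factors, -0.16 as a difference of mean log-normalized values, -0.053 thinned and -0.10 with states weighted. For MPCs under SB225002 (-0.74) the same alternatives gave -0.69, -0.66, -0.66, -0.29, -0.69 and -0.46. Differences of mean log-normalized values are on another scale than ratios of CPM and are smaller for genes at low levels. In not dividing macrophages after MI (0.23) it was -0.083 with cells under 5% mitochondrial UMIs, 0.088 without integration, 0.060 with all variable genes, -0.035 at resolution 1.2 and 0.038 for log-normalized values. In the same cells under SB225002 (-0.36) these gave -0.74, -0.69, -0.60, -0.71 and -0.26. There it was also -0.48 with the highest Scrublet scores removed and, in alternatives chosen after seeing the data, -0.48 with the cardiomyocyte-RNA cluster (3 members lower) and -0.23 without the immediate-early cluster. The mean number of members per not dividing macrophage fell to 2.56, 2.78 and 2.32 on thinning. The number of members lower in infarct macrophages was 5 without the library block and 7 to 10 leaving out each library. Timd4 there turned to 0.23 with cells under 5% mitochondrial UMIs and to 0.47 without integration. The cause of these shifts was not tested.

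Values by condition past 1.5-fold, single ratios and the medians of infarct macrophages, were recomputed 123 times, with each alternative counted separately. Of these recomputed values, 122 kept their direction and 103 stayed past it. They include differences of mean log-normalized values, held to the same limit although on another scale. Single state differences were recomputed 330 times in the same way, of which 328 were lower and 308 kept their call. No paired analysis was possible because each condition had 1 library. Depth limits Timd4 and Vsig4 most, with 74 to 169 UMIs per library in not dividing macrophages.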

Other observations

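A wider list of 24 resident macrophage genes, of which 20 could be tested, followed the members between states. In dividing macrophages 17 were lower and 0 higher (17.4% of all genes were lower), in the Ly6c2-S100a8 cluster 19 were lower and 0 higher (21.8%), and in infarct macrophages 16 were lower and 0 higher (10.8%). In not dividing macrophages, none of the 20 with at least 100 UMIs was past 1.5-fold after MI, and 3 were lower under SB225002 (3.24% of all genes were). These were F13a1, a transglutaminase subunit, at 3245 and 1840 CPM (log2 ratio -0.82), Maf, a transcription factor of differentiated macrophages, at 1912 and 1026 CPM (-0.90), and Mgl2, a lectin, at 149 and 95.1 CPM (-0.65). Over all MPCs 6 of the 20 were lower and 1 higher under SB225002 (5.9% and 2.89% of all genes).

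In macrophages with interferon genes (62, 70 and 128 cells), 7 members had at least 100 UMIs over both libraries with MI, and their median log2 ratio under SB225002 was -1.16 (all genes 0.01). The infarct markers went from 2116 to 13220 CPM in the same cells.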
